A study of Mus musculus with 12 samples.

Results

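Immediate-early response genes were followed across 3 tissues of mice given unacylated ghrelin (UAG). The group holds 10 genes (Fos, Fosb, Jun, Junb, Jund, Egr1, Egr2, Ier2, Atf3 and Dusp1), taken by symbol from the array annotation, out of 18193 genes with a probe set of a single symbol. They are measured by 13 of 34945 such probe sets, each a set of short probes for one transcript, with a pair each for Jun, Jund and Egr2. The level of a gene is that of its brightest probe set over the 12 arrays. All mice were 12 week old female Ghsr-/- mice on C57BL/6, which lack the receptor that acylated ghrelin acts through, so no group carries an intact Ghsr. The treated mice received 20 nmol/kg UAG intraperitoneally and the controls saline, and tissues were taken 6 h later. Gonadal white adipose tissue (WAT), M. vastus lateralis muscle and liver were each hybridized on 2 UAG and 2 saline arrays. Which mouse gave which array is not recorded in the labels, and the p-values below therefore reflect the spread among arrays, part of which may be technical.

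Immediate-early genes are transcribed within minutes of a stimulus from factors already present in the cell, without new protein synthesis, and their transcripts are short-lived. Growth factors, hormones, stress and tissue handling all induce them, through ERK and other kinases that act on SRF with its ternary complex partners and on CREB. Many of the products are transcription factors of the AP-1 and EGR families, and others, such as the phosphatase DUSP1, switch the kinases off again. In adipose tissue, muscle and liver they are known for responses to feeding, insulin, exercise and injury.

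The windows around the start sites of 8 of the 10 genes were in the RefSeq promoter table (build GRCm38.p6, 250 bases before and 50 after the start). Those of Fos, Dusp1, Jun and Atf3, on which the results below turn most, are printed with that of Egr2, to show the elements through which CREB and SRF are known to act. They lie at chr12:85473640-85473939 (Fos, plus strand), chr17:26508423-26508722 (Dusp1, minus strand), chr4:95052173-95052472 (Jun, minus strand), chr1:191183284-191183583 (Atf3, minus strand) and chr10:67537619-67537918 (Egr2, plus strand, one of several starts). Capitals mark TGACGT (the core of the cAMP response element, on either strand), TGACATCA (a related element), TATAAA, and the CArG box that SRF binds.
Fos: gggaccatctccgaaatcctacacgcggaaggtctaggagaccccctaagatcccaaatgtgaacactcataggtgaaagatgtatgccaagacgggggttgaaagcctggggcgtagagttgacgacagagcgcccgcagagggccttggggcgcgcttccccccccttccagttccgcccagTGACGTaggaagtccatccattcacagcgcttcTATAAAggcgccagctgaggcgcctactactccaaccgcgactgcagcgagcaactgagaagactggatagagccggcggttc
Dusp1: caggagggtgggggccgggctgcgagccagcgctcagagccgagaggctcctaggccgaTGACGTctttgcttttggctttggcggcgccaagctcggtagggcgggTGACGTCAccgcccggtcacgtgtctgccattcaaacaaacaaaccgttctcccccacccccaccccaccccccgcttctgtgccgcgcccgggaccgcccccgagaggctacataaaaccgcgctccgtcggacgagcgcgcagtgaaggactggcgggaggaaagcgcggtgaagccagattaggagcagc
Jun: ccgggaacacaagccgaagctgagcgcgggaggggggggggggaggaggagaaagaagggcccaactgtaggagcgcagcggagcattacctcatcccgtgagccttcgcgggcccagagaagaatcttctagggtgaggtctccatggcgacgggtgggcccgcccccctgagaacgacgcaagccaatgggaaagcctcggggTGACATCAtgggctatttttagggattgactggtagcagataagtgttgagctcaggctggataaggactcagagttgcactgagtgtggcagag
Atf3: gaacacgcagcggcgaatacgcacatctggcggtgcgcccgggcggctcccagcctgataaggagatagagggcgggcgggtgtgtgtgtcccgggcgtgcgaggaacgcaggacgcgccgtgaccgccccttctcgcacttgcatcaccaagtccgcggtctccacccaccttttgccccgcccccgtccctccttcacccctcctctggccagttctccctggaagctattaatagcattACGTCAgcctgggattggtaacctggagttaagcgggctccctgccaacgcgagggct
Egr2: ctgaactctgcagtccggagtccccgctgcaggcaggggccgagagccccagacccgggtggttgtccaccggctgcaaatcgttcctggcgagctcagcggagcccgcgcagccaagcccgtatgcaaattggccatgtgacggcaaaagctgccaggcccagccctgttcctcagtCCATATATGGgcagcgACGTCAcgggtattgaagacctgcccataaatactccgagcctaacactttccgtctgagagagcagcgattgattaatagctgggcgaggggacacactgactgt
TGACGT lay 66 bases before the start of Fos, in 2 places before that of Dusp1 (191 and 143 bases, the nearer one a palindrome that counts on both strands), 8 bases before that of Atf3 and 56 before that of Egr2. It occurred in a window of 4 of the 10 genes (8 had windows, and Egr2 several) and in 7.51% of all 32851 windows of this length. The former counts genes and the latter windows, so that they are not directly comparable. TGACATCA lay 45 bases before the Jun start and occurred in 3.62% of windows, and overlaps no TGACGT. A CArG box lay 72 bases before the Egr2 start and in 1.63% of windows. TATAAA, found 33 bases before the Fos start and in Junb, occurred in 13.6%. The AP-1 element TGANTCA occurred in 7.81% of windows and in none of the members' windows. These matches describe letters only, and no binding was measured.

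Levels were the deposited values returned from log2 to intensity, and values below 30, the threshold of the study's methods, were set to 30 for ratios and tests. Tests were made with limma on log2 values over all probe sets with a mean of at least 30, with Benjamini-Hochberg adjustment. Within a tissue the arrays correlated at 0.925 or more. The Ghsr probe set lay below 30 on all 12 arrays, between 3.8 and 26.2, and what part of the gene it covers was not examined. The libraries of WAT and muscle were not uniform in the levels of cell type markers. The summed intensity of 6 smooth muscle markers was 6648 and 7112 on the WAT UAG arrays, against 6162 on WAT saline 1 and 34705 on WAT saline 2. The sum of 4 brown adipocyte markers was 3822 and 1845 on the WAT UAG arrays, against 18807 on WAT saline 1 and 2749 on WAT saline 2. The sum of 11 leukocyte markers was 3140.1 and 8818 on the muscle UAG arrays, against 2407 and 3261 on the muscle saline arrays. The neutrophil genes S100a8 and S100a9 made up 139 and 4801 of it on the muscle UAG arrays and 134 and 311 on the muscle saline arrays, and the other 9 markers summed to 3002 and 4017 with UAG and 2272 and 2949 with saline. In whole tissue, fewer cells of a type and less RNA per cell cannot be told apart.

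**Figure D1:**
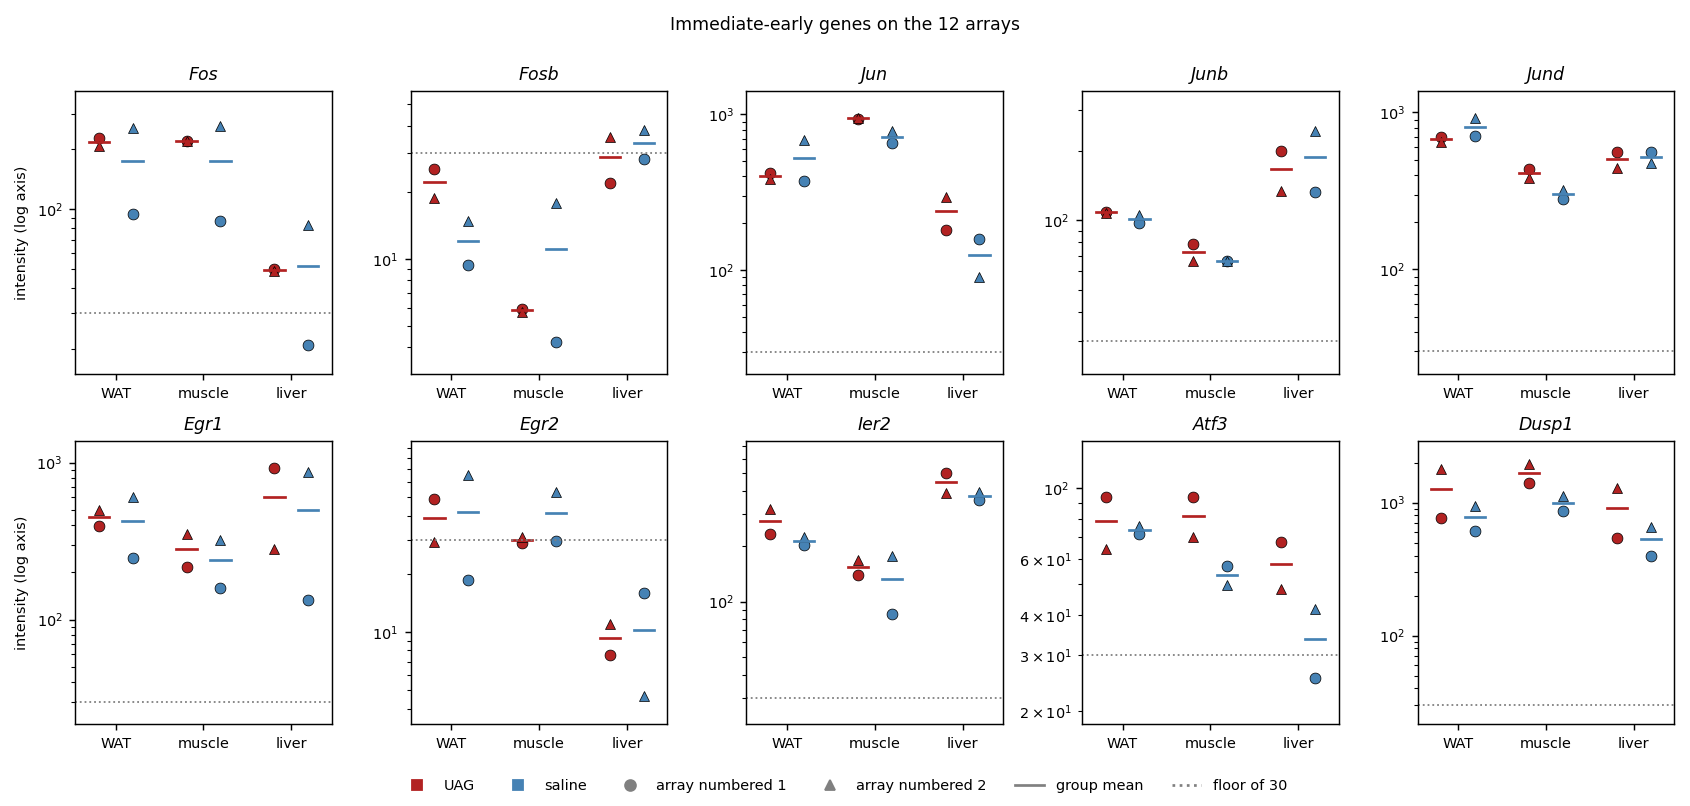
Intensity (log axis) of the brightest probe set of each of the 10 genes on every array, by tissue, with UAG in red to the left of saline in blue, circles for arrays numbered 1, triangles for arrays numbered 2, a bar at the group mean and a dotted line at the floor of 30. The Fos panel shows the UAG arrays close together (226 and 207 in WAT) between a low saline 1 (93.9) and a high saline 2 (255).

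UAG did not change any of the 10 genes by the 2-fold rule in any tissue, and limma called none. The number of members with a ratio of means of at least 2 or at most 0.5 was 0 in WAT, muscle and liver, where 1.63%, 0.418% and 0.396% of all genes passed that rule. limma tested 9 members in each tissue and called 0 of them at an adjusted p of 0.05, as it called 0% (WAT), 0% (muscle) and 0.00397% (liver) of probe sets. At an unadjusted p of 0.05, 0 members passed in WAT, 1 in muscle (Dusp1) and 1 in liver (Jun), against 6.81%, 1.86% and 3.65% of all probe sets. The UAG arrays lay above both saline arrays, after the floor, for 2 members in WAT, 4 in muscle and 2 in liver, where 16.1%, 8.09% and 10.4% of genes did so. They lay below both for 1 member in WAT and 0 in muscle and liver, against 9.49%, 6.62% and 9.73% of genes. The median log2 difference of the tested members was 0.09, 0.41 and 0.24 in WAT, muscle and liver. That of all probe sets was 0.012, -0.002 and 0.0011.

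Dusp1 encodes the nuclear phosphatase that inactivates the MAP kinases p38, JNK and ERK, and it is the inhibitor among these genes. In muscle it measured 1404 and 1947 on the UAG arrays and 871 and 1131 on the saline arrays, and the groups did not overlap. The ratio of means was 1.67 and the log2 difference 0.74 (SE 0.22, 95% interval 0.24 to 1.23, limma adjusted p = 1). In WAT it measured 759.6 and 1775 on the UAG arrays and 608 and 943 on the saline arrays, a log2 difference of 0.62 (SE 0.43, adjusted p = 0.817). In liver the values were 546 and 1281 with UAG and 395 and 661 with saline, a log2 difference of 0.71 (SE 0.37, adjusted p = 1). In both of those tissues UAG 2 stood above every other array and UAG 1 lay between the saline arrays. Dusp1 had its highest value on UAG 2 and its lowest on saline 1 in all 3 tissues. In muscle UAG 2 was also the array with the leukocyte marker sum of 8818, of which S100a8 and S100a9 gave 4801, and the part of those cells in the Dusp1 difference was not tested. Averaged over the tissues, its UAG minus saline difference was 0.69 (SE 0.27, interval 0.10 to 1.28, adjusted p = 0.873).

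Jun is the subunit of AP-1 that can act as a homodimer or with a Fos protein. In liver it measured 182 and 297 on the UAG arrays and 159 and 90.7 on the saline arrays, a ratio of 1.92, the closest of any member to the 2-fold threshold. The log2 difference was 0.95 (SE 0.32, interval 0.22 to 1.69, adjusted p = 1), and the second Jun probe set gave 0.76 (SE 0.24, adjusted p = 1), also without overlap. In muscle Jun measured 942 and 948 with UAG and 652 and 779 with saline, with a log2 difference of 0.41 (SE 0.18, adjusted p = 1). In WAT it measured 419 and 387 with UAG and 372 and 681 with saline, a log2 difference of -0.32 (SE 0.29, adjusted p = 0.859). The UAG arrays were thus above saline in muscle and liver and inside the saline range in WAT. The UAG effect on Jun in WAT minus that in liver was -1.27 (SE 0.46, adjusted p = 0.971).

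Jund, the Jun protein that is present in resting cells and less inducible than its relatives, had its UAG arrays on opposite sides of saline in WAT and muscle. In muscle it measured 435 and 383 with UAG and 282 and 322 with saline, a log2 difference of 0.44 (SE 0.20, adjusted p = 1). In WAT it measured 702 and 649 with UAG and 704 and 918 with saline, a log2 difference of -0.25 (SE 0.18, adjusted p = 0.818), although UAG 1 and saline 1 there were 702 and 704. In liver the values were 563 and 444 with UAG and 561 and 473 with saline (log2 difference -0.04). The difference of the UAG effect, WAT minus muscle, was -0.69 (SE 0.25, adjusted p = 1). The second Jund probe set stayed below 30 on all arrays and was not tested. Junb, the third Jun protein, which opposes Jun at many AP-1 sites, had log2 differences of 0.09 in WAT, 0.12 in muscle and -0.14 in liver (adjusted p 0.94, 1 and 1). In WAT Junb measured 109 and 107 with UAG and 97.5 and 105 with saline, the narrowest spread of any member there. In muscle it measured 78.8 and 66.6 with UAG and 66.6 and 66.6 with saline, so that its difference there came from UAG 1 alone. The origin of the repeated value was not examined.

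Over the 3 contrasts of the UAG effect between tissues, which compare the UAG minus saline difference of one tissue with that of another, limma called 0 of 8 tested members. It called 0% of probe sets for WAT minus liver, 0% for muscle minus liver and 0.00377% for WAT minus muscle. At an unadjusted p of 0.05, 1, 0 and 1 members passed, against 4.86%, 2.81% and 3.57% of probe sets.

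Fos and Fosb encode the partners that bind DNA with a Jun protein. Fos measured 226 and 207 with UAG and 93.9 and 255 with saline in WAT. In muscle it measured 218 and 219.8 with UAG and 86.7 and 261 with saline. In liver it measured 50 and 48.9 with UAG and 20.8 and 83.2 with saline. In every tissue the UAG arrays agreed closely and lay between a low saline 1 and a high saline 2. The log2 differences were 0.48 (SE 0.46, interval -0.65 to 1.62) in WAT, 0.54 (SE 0.44, interval -0.46 to 1.54) in muscle and -0.02 (SE 0.47, interval -1.10 to 1.07) in liver, with adjusted p of 0.865, 1 and 1. Fosb was below the floor of 30 on all arrays of WAT and muscle, where it had no test. In liver Fosb measured 22.1 and 35.6 with UAG and 28.3 and 38.4 with saline (log2 difference -0.05, SE 0.33, adjusted p = 1).

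Egr1 and Egr2 are zinc finger factors that bind GC-rich sites, and Egr1 is a common readout of ERK activity. Egr1 varied most in liver, where it measured 919.9 and 279.8 with UAG and 133 and 868 with saline. The high arrays, UAG 1 and saline 2, came from different treatments, and the log2 difference was 0.58 (SE 0.79, interval -1.23 to 2.39, adjusted p = 1). In WAT it measured 396 and 501 with UAG and 245 and 606 with saline (log2 difference 0.21, SE 0.42). In muscle it measured 216 and 349 with UAG and 159.6 and 323 with saline (0.28, SE 0.36). Egr2 was dim. It measured 48.8 and 29.1 with UAG and 18.5 and 65.3 with saline in WAT, and 29 and 31.2 with UAG and 29.5 and 52.8 with saline in muscle. The log2 differences were -0.21 (SE 0.44) and -0.38 (SE 0.34), and in liver all 4 arrays lay below 30.

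Ier2 encodes a nuclear protein induced with the other early genes. It measured 233 and 318 with UAG and 203 and 226 with saline in WAT, without overlap, for a log2 difference of 0.35 (SE 0.21, adjusted p = 0.803). In muscle it measured 139.9 and 169 with UAG and 86.1 and 178 with saline (0.31, SE 0.35), and in liver 501 and 392 with UAG and 356 and 395 with saline (0.24, SE 0.15). Atf3, a stress-induced bZIP factor that can repress its targets, measured 93.6 and 70.2 with UAG and 56.8 and 49.8 with saline in muscle. Its liver values were 67.8 and 48.2 with UAG and 25.5 and 41.7 with saline. In both tissues the UAG arrays lay above saline, with log2 differences of 0.61 (SE 0.29) and 0.69 (SE 0.35) and an adjusted p of 1. In WAT Atf3 measured 93.4 and 64.5 with UAG and 71.5 and 75.8 with saline, so that UAG spanned the saline range (0.08, SE 0.25).

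**Figure D2:**
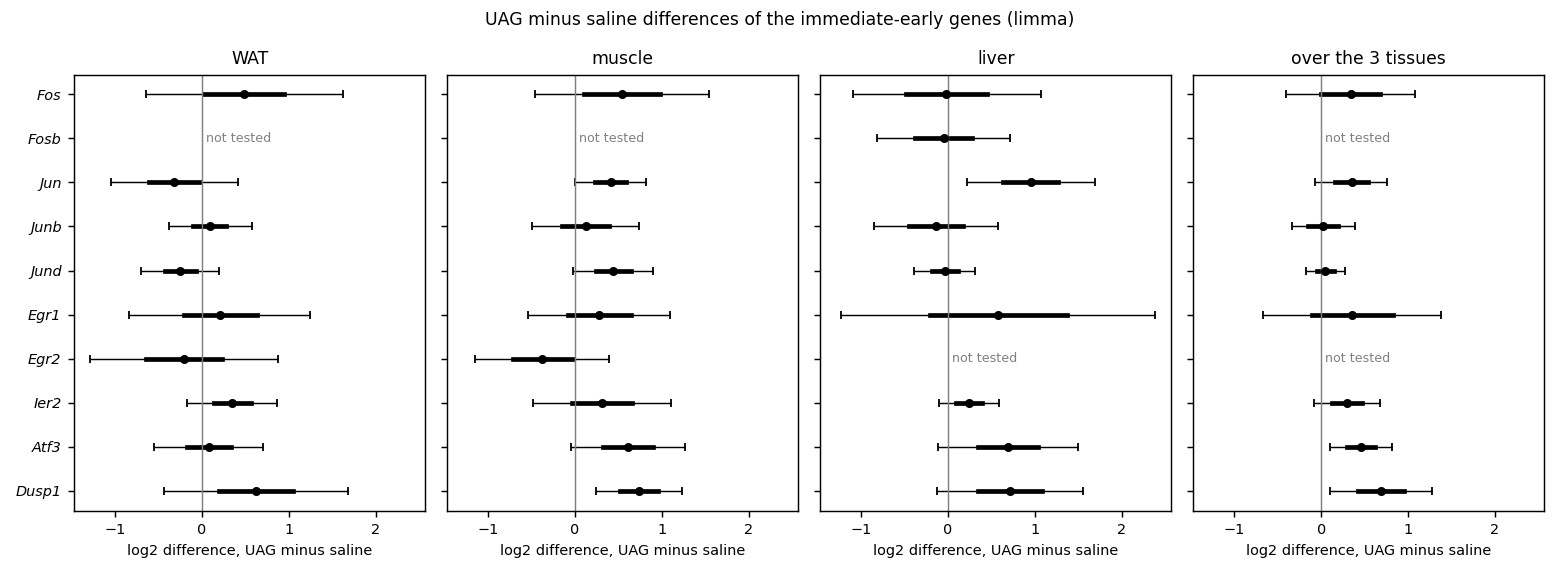
Log2 difference (UAG minus saline) of each gene in WAT, muscle, liver and averaged over the 3 tissues, from limma, with thick bars for 1 SE and thin bars for the 95% interval, and genes that were too dim to test marked. The intervals of Dusp1 in muscle (0.24 to 1.23) and Jun in liver (0.22 to 1.69) exclude 0 before adjustment.

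The average over the tissues leaned one way. All 8 members tested on the 12 arrays had a positive UAG minus saline difference, with a median of 0.34 on the log2 scale, against 0.0011 over all probe sets. Fosb and Egr2 were too dim for this fit. Where they were tested in a single tissue, their differences were negative (Egr2 -0.21 in WAT and -0.38 in muscle, Fosb -0.05 in liver). limma called 0 of the 8, and 0.0302% of all probe sets. At an unadjusted p of 0.05, 2 of them passed, Dusp1 and Atf3, against 5.42% of probe sets. Atf3 averaged 0.46 (SE 0.16, interval 0.10 to 0.82, adjusted p = 0.817), Egr1 0.36 (SE 0.47), Jun 0.35 (SE 0.19), Fos 0.34 (SE 0.34), Ier2 0.30 (SE 0.17), Jund 0.05 (SE 0.10) and Junb 0.02 (SE 0.17). This fit took the 12 arrays as independent. The methods give 2 mice per treatment, so that each mouse probably gave all 3 tissues, although the labels tie no array to a mouse. If arrays of a mouse deviate together, the SE, intervals and p-values of this average are too small. With arrays of one treatment and number averaged over the tissues first, a fit on 4 values chosen after the data were seen, limma called 0 of the 8 members. In that fit Dusp1 averaged 0.69 (SE 0.31, interval -0.03 to 1.41, adjusted p = 1), Fos 0.34 (SE 0.41) and Atf3 0.46 (SE 0.20), and only Jun (0.35, SE 0.12, adjusted p = 1) had an unadjusted p under 0.05, as did 3.79% of probe sets.

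The size of that lean, and the sign of some members, changed with the saline array left out. Saline 1 was the lowest array in all 3 tissues for Fos, Egr1, Ier2 and Dusp1, so that leaving it out had to lower their differences. With saline 1 of all 3 tissues left out, an alternative chosen after the data were seen, 4 of 9 tested members were positive and 5 negative, with a median of -0.01 (Egr2 then passed the intensity filter). With saline 2 left out instead, 8 of 8 were positive and the median was 0.52. Fos, Egr1, Junb and Jund changed sign between these fits. The Fos average over the tissues was -0.41 without saline 1 and 1.09 without saline 2. Egr1 averaged -0.48 without saline 1 and 1.19 without saline 2, Junb -0.14 and 0.19, and Jund -0.01 and 0.10. Dusp1 kept its direction, with 0.40 without saline 1 and 0.98 without saline 2. So did Atf3 (0.40 and 0.52), Jun (0.29 and 0.40) and Ier2 (0.08 and 0.53). Each of these fits has a single saline array per tissue, so their spread comes from the UAG arrays alone and only the sizes are given. For Fos the UAG arrays agreed closely, while the saline arrays differed by 2.72-fold to 3.01-fold. The 2-fold counts moved in the same way. Without saline 2, Fos passed in WAT (ratio 2.31) and muscle (2.53), Dusp1 in WAT (2.09) and liver (2.31), and Egr1 in liver (4.52). Jun passed in liver without saline 1 (2.64), and without UAG 1 Jun passed in liver (2.38) and Dusp1 in WAT (2.29) and liver (2.43).

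The saline arrays differed from each other in Fos and Egr1 in every tissue, a pattern noticed after the values were seen. Saline 2 exceeded saline 1 for Fos by 2.72-fold in WAT, 3.01-fold in muscle and 2.77-fold in liver, the last with saline 1 set to the floor. UAG 2 over UAG 1 for Fos was 0.917, 1.01 and 0.977 in the same tissues. For Egr1, saline 2 exceeded saline 1 by 2.47-fold, 2.02-fold and 6.55-fold. At least a 2-fold excess of saline 2 was seen in 3 members in WAT (Fos, Egr1 and Egr2), 3 in muscle (Fos, Egr1 and Ier2) and 2 in liver (Fos and Egr1), and in 2.32%, 2.86% and 1.25% of all genes. In all 3 tissues it was seen in 3 genes of 18193 (0.0165%), of which 2 were Fos and Egr1. Saline 1 was the lowest array in all 3 tissues for Fos, Egr1, Ier2 and Dusp1. Over 12594 genes that passed the intensity filter it was the lowest array for 30.5% in WAT, 29% in muscle and 27.7% in liver. These shares are for each tissue alone, and the share of genes with saline 1 lowest in all 3 tissues together was not counted. Whether arrays of the same number came from the same mouse is not given in the sources used here.

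In WAT the high saline 2 array was also the array with the smooth muscle sum of 34705. In muscle that sum was 5906 and 5219 on the UAG arrays, 5147 on saline 1 and 5116 on saline 2. In liver it was 430.4 and 361 on the UAG arrays, 307 on saline 1 and 320.0 on saline 2. Fos on saline 2 exceeded saline 1 by 3.01-fold in muscle and 2.77-fold in liver. The part of smooth muscle content in the Fos differences was not tested. Other marker sums did separate the muscle arrays. The sum of 6 mesothelial and epithelial markers was 509 and 659 on the muscle UAG arrays, against 113 on saline 1 and 2689 on saline 2. That of 5 adipocyte markers was 29210.0 and 33701 with UAG, against 25740.4 on saline 1 and 40315 on saline 2, and that of 6 fibroblast markers 13264 and 15298 with UAG, against 10159.6 and 14733. In these sums saline 1 was the lowest muscle array, as it was for Fos. The fibroblast sum was also lowest on saline 1 and highest on saline 2 in WAT (21746 and 40904, with UAG 27071 and 26604). In liver it had the same order (2864 and 3790.0, with UAG 3608 and 3594). The adipocyte sum was not lowest on saline 1 in WAT (51439, saline 2 47512, UAG 52288 and 56845) or liver (415, saline 2 341, UAG 301 and 413). The part of cell content in the Fos difference was not tested. The actin 3′/5′ ratio, a measure of RNA integrity, was 1.08 and 1.08 on the muscle UAG arrays, 0.898 on saline 1 and 1.13 on saline 2. It was 1.84 and 1.7 on the WAT UAG arrays against 1.96 and 1.81 on saline 1 and 2, and 1.94 and 2.35 on the liver UAG arrays against 1.7 and 1.78. The part of RNA integrity in these differences was not tested.

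**Figure D3:**
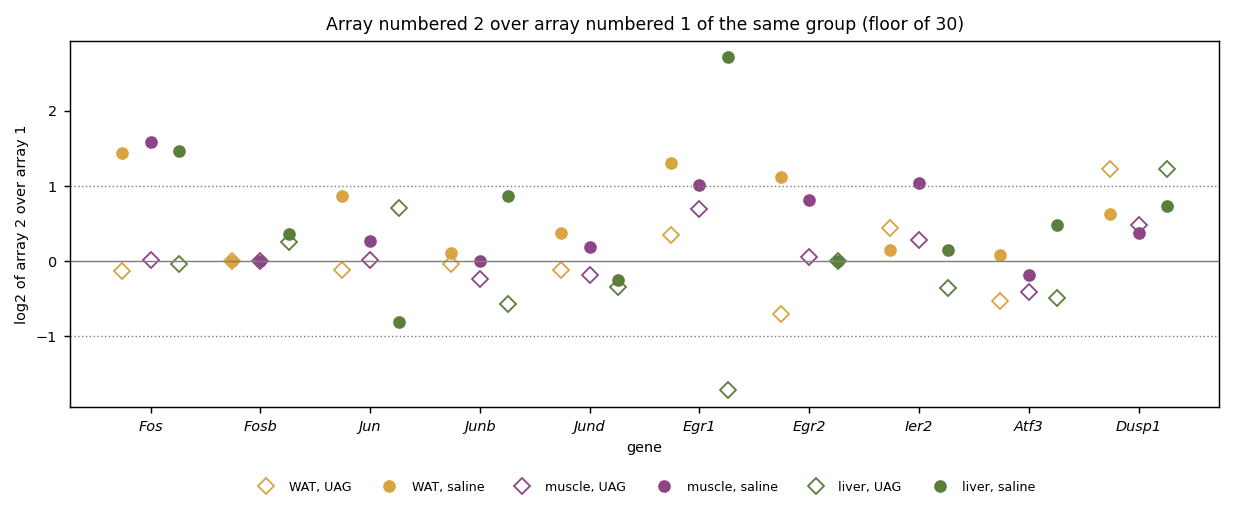
Log2 of the array numbered 2 over the array numbered 1 of the same group for each gene, after the floor of 30, with open diamonds for UAG and filled circles for saline, coloured by tissue, and dotted lines at a 2-fold difference. The filled circles of Fos lie above the upper line in all 3 tissues (2.72-fold, 3.01-fold and 2.77-fold), and its diamonds lie near 0.

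**Figure D4:**
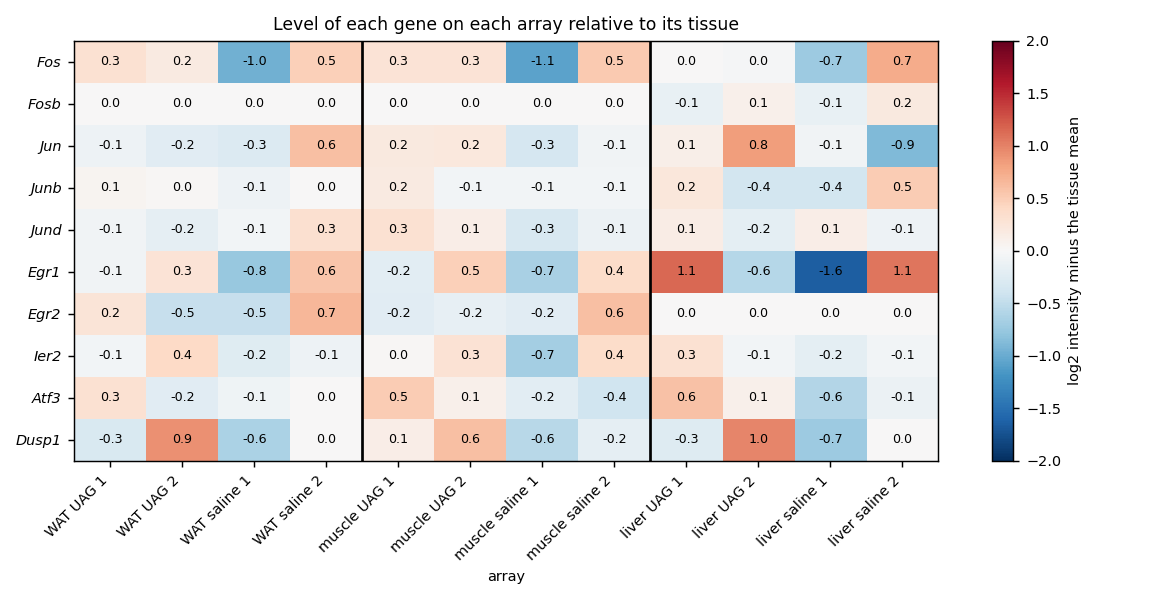
Log2 intensity (floor of 30) of each gene on each of the 12 arrays minus its mean over the 4 arrays of the tissue, red above and blue below the mean, with black lines between tissues. The saline 1 columns are blue for Fos, Egr1, Ier2 and Dusp1, and Dusp1 is reddest on UAG 2.

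The genes whose deviations from the tissue mean were most like those of Fos over the 12 arrays, among 9118 genes with a mean intensity of at least 100, were Frmd4a (r = 0.952), Leprot (0.951), Gpx7 (0.942), Sox17 (0.938), Lgmn (0.931), Ccm2 (0.92), Zc3h6 (0.914) and Atp8b2 (0.908). None of these 8 is an AP-1 or EGR gene. Among the members Egr1 was nearest to Fos (r = 0.748, rank 260 of 9118), then Ier2 (0.674, rank 533). For Dusp1 the nearest were Hoxd8 (0.854), Fgd5 (0.846), Tmem159 (0.845), Stk17b (0.843), Caml (0.834), Cebpd (0.829), Ccn2 (0.827) and Il6ra (0.803). Ccn2 is itself an early response gene, and Cebpd a bZIP factor of early adipocyte differentiation. The Jun and Fos deviations were nearly unrelated (r = 0.0985). These correlations are descriptions over 12 arrays that share the 3 tissues and, perhaps, mice.

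The wider early response was followed through lists of related genes. Of 32 other immediate-early genes, 30 were tested in each tissue. The UAG minus saline difference was positive for 20 in WAT, 25 in muscle and 23 in liver, with median log2 differences of 0.27, 0.36 and 0.21. limma called none in any tissue, and 5, 8 and 2 had an unadjusted p under 0.05, where 6.81%, 1.86% and 3.65% of all probe sets did. The UAG arrays lay above both saline arrays for 11 of the 32 in WAT, 15 in muscle and 8 in liver, against 16.1%, 8.09% and 10.4% of all genes. They lay below both for 4, 0 and 2, against 9.49%, 6.62% and 9.73% of all genes. Averaged over the tissues 26 of 30 were positive (median 0.31), with 8 at an unadjusted p under 0.05 (5.42% of all probe sets) and 0 called. The 3 with the lowest p, singled out after their values were seen, were Ier3, a regulator of cell survival (0.72, SE 0.15, adjusted p = 0.339), Per1, a component of the circadian clock (0.81, SE 0.22, adjusted p = 0.626), and Klf6, a zinc finger factor (0.48, SE 0.13, adjusted p = 0.626). Only Socs3, an inhibitor of cytokine signalling, passed the 2-fold rule in this list, with a ratio of 0.488 in WAT. It measured 119.9 and 90.7 with UAG and 116 and 316 with saline there, so that the groups overlapped, and without saline 2 the ratio was 0.911. Without saline 1 the split of this list over the tissues was 16 positive and 14 negative (median 0.04), and without saline 2 it was 28 and 2 (median 0.56).

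The other lists stayed near the median of all probe sets. Over the 3 tissues the median log2 difference was -0.01 for 13 other AP-1 and bZIP genes, 0.03 for 6 other EGR and NR4A genes, 0.05 for 13 other dual-specificity phosphatases and ERK inhibitors, 0.01 for 18 upstream kinases and SRF, TCF and CREB factors, and -0.04 for 9 heat shock genes. limma called 0 genes of any of these lists in any tissue or over the tissues, where it called at most 0.0302% of all probe sets. At an unadjusted p under 0.05 over the tissues there were 1, 0, 1, 0 and 1 genes in these lists, against 5.42% of all probe sets.

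Among the cell type markers, Lep, which encodes the adipocyte hormone leptin, measured 2762 and 3283 with UAG and 1495 and 392 with saline in WAT (ratio 3.2, adjusted p = 0.659). In muscle it measured 366 and 626 with UAG and 176 and 172 with saline (ratio 2.85, adjusted p = 1). The other markers that passed the 2-fold rule without overlap were all in WAT. They were the mesothelial and epithelial markers Msln (ratio 2.32) and Krt18 (0.426), the brown adipocyte markers Elovl3 (0.211) and Cox8b (0.29), and the muscle fibre marker Tnnt3 (0.203). All of these except Msln were highest on saline 1 of WAT, the array on which Fos, Egr1, Ier2 and Dusp1 were lowest in that tissue. The part of cell content in the members' differences was not tested.

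The tissues differed far more than the treatments. limma tested 8 members between tissues (Fosb and Egr2 were too dim) and called 6 for WAT minus liver, 7 for muscle minus liver and 4 for WAT minus muscle, where it called 59.2%, 61.5% and 49.9% of all probe sets. Fos ranged from 93.9 to 255 with a median of 217 in WAT and from 86.7 to 261 with a median of 219 in muscle, against 20.8 to 83.2 with a median of 49.4 in liver. It was higher than in liver by 1.88 in WAT (SE 0.41, adjusted p = 0.00244) and by 1.87 in muscle (SE 0.41, adjusted p = 0.00234) on the log2 scale, and WAT and muscle differed by 0.01 (interval -0.90 to 0.93). Jun was highest in muscle, with a median of 861, against 403 in WAT and 170.3 in liver, and all 3 pairs of tissues differed (WAT minus liver 1.43, SE 0.23, adjusted p = 2.99e-04, muscle minus liver 2.30, SE 0.23, adjusted p = 6.38e-06, WAT minus muscle -0.87, SE 0.23, adjusted p = 0.00922). Ranges of Jun did not overlap between liver and the other tissues. The muscle arrays also carried adipocyte transcripts. The sum of 5 adipocyte markers was 25740.4 to 40315 on muscle arrays, 47512 to 56845 on WAT arrays and 301 to 415 on liver arrays. That of 4 brown adipocyte markers was 11135 to 18336 in muscle and 1845 to 18807 in WAT. The part of adipose tissue in the muscle levels of the members was not tested.

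Junb and Ier2 ran the other way and were highest in liver. Junb had medians of 106 in WAT, 66.6 in muscle and 167 in liver, with muscle minus liver at -1.30 (SE 0.20, adjusted p = 1.96e-04). The muscle median of Junb was the value shared by saline 1, saline 2 and UAG 2, which may not be separate measurements. Ier2 had medians of 229, 154 and 393 in WAT, muscle and liver, with muscle minus liver at -1.56 (SE 0.21, adjusted p = 6.60e-05), and its liver arrays lay above all others. Jund was highest in WAT (medians 703, 352 and 517), with WAT minus muscle at 1.07 (SE 0.13, adjusted p = 4.96e-05). Atf3 was higher than in liver by 0.75 in WAT (SE 0.20, adjusted p = 0.00716) and 0.55 in muscle (SE 0.20, adjusted p = 0.0327), and WAT and muscle did not differ beyond their spread (0.20, interval -0.23 to 0.64). Dusp1 had medians of 851, 1267 and 603 and differed only in muscle minus liver (0.97, SE 0.33, adjusted p = 0.0237). Egr1 had medians of 449, 269 and 574, and no pair of tissues passed, although without liver saline 1 muscle minus liver was called (-1.41, adjusted p = 0.0351). Fosb had medians of 16.8, 5.86 and 31.9 and Egr2 of 39, 30.4 and 9.3.

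Some of these calls lay near the threshold and were lost with 1 array fewer, while the difference kept its direction. That of Dusp1 for muscle minus liver was lost without muscle saline 2, muscle UAG 2, liver saline 1 or liver UAG 1 (log2 difference 0.66 to 0.88, adjusted p 0.0778 to 0.118), and that of Atf3 without muscle saline 1, muscle UAG 1, liver saline 1 or liver UAG 2 (0.42 to 0.50, adjusted p 0.0862 to 0.116). Junb was called for WAT minus muscle (0.59, SE 0.20, adjusted p = 0.0321), and the call was lost on leaving out any of the arrays of these tissues except muscle UAG 1 (0.53 to 0.61, adjusted p 0.0522 to 0.095). With a floor of 100, Fos exceeded liver by 0.89 in WAT and 0.91 in muscle, with adjusted p of 0.11 and 0.1. All liver Fos arrays lay below 100 (20.8 to 83.2), so that this floor had to lower the differences.

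**Figure D5:**
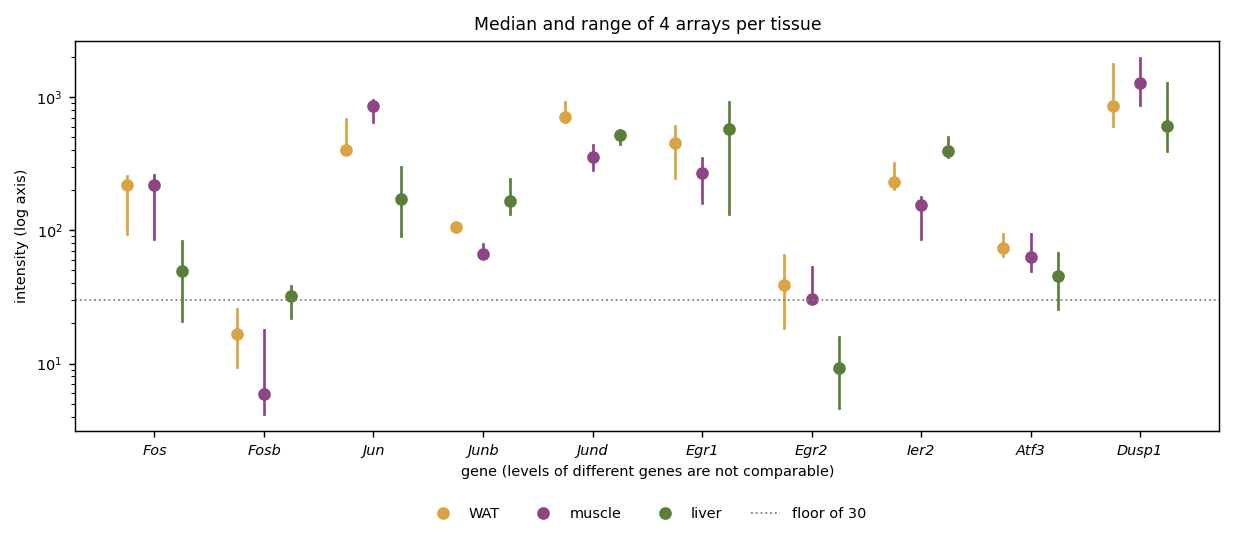
Median (point) and range (line) of the intensity of each gene over the 4 arrays of WAT, muscle and liver, on a log axis, with the floor of 30 dotted. Fos and Jun are lowest in liver (medians 49.4 and 170.3), and Junb and Ier2 are highest there (167 and 393).

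The related genes were compared between tissues as well. Of 30 other immediate-early genes, 17 (56.7%) were called for WAT minus liver and 17 for muscle minus liver, against 59.2% and 61.5% of all probe sets, so that the share of the list was near that of the array. Of these, 13 were higher and 4 lower in WAT minus liver, with Klf4 (4.12, SE 0.27) and Ier3 (2.66, SE 0.18) the largest, and 12 were higher and 5 lower in muscle minus liver, led by Gadd45b (3.18, SE 0.24). Nr4a1, an orphan nuclear receptor induced by muscle activity, was higher by 3.78 (SE 0.19, adjusted p = 1.79e-08) in muscle minus liver. Among AP-1 genes Fosl2 was higher in WAT than in liver by 2.61 (SE 0.28, adjusted p = 1.30e-05). Among phosphatases Dusp4 differed most between WAT and liver (2.93, SE 0.27, adjusted p = 3.71e-06).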

How the data were processed

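Total RNA from the 3 tissues was hybridized to 12 Affymetrix arrays of the mouse genome, 2 per tissue and treatment. The table that the authors deposited holds log2 values, normalized by them, of 45037 probe sets and 64 controls. The submitters' notes name MAS5, with no version, and the methods name quantile normalization and a threshold of 30 with a 2-fold ratio of means. No source states the log base. It was taken as 2, from the size of ratios that the study tabulates for other genes. The number of arrays limits the precision.

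Genes were named from the platform annotation: 34945 probe sets carry 1 symbol, 932 several and 9160 none. Values were returned to intensity, set to at least 30, and compared by the ratio of means. Log2 values were tested with limma 3.58.1 (R 4.3.3) per tissue (4 arrays), and on all 12 arrays for tissue contrasts, interactions and the mean UAG effect, with an intensity trend, over probe sets with a mean of at least 30. P-values were adjusted by Benjamini-Hochberg over all of these. The fits were tested on simulated data. Array columns without a sample numbered 0.

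The members and lists were chosen with earlier results of these data known. Every member is named. From other lists, genes that passed the 2-fold rule without overlap are named, as are the list genes that differed most between tissues, at most 2 per list, and the 8 genes most correlated with Fos and with Dusp1. The genes singled out otherwise are said to be so. Tmem159, Caml and others keep the annotation's symbols. List genes without a probe set of a single symbol are not analysed here. Promoters are from RefSeq (GRCm38.p6). Alternatives were other floors, normalizations, filters, probe set rules, a replicate block and each array left out.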

Additional observations from a re-analysis of the deposited data

Results flagged for a closer look

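Jund had its UAG arrays on opposite sides of saline in muscle and WAT. In muscle both UAG arrays were above both saline arrays (log2 difference 0.44), and in WAT both were below both saline arrays (log2 difference -0.25). The test of the difference of the UAG effect, WAT minus muscle, gave -0.69 (SE 0.25, limma adjusted p = 1), with no probe set for Jund other than the brightest above the floor.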

How the results depend on the processing

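Of the alternatives to the counts of members, most gave the same count. The 2-fold count, 0 with all arrays, ranged, with an array left out, between 0 and 2 (WAT), 0 and 1 (muscle) and 0 and 2 (liver). With the saline arrays numbered 2 left out together it was 2, 1 and 2 in WAT, muscle and liver, and with those numbered 1 left out it was 1 in liver. The average over the tissues without the saline arrays of one number is given by its size only, since each tissue then holds a single saline array. With a floor of 100, 4 members were called for muscle minus liver, against 7. All Atf3 arrays and all liver Fos arrays lay below 100, so that this floor made the Atf3 difference 0 and had to lower that of Fos. Without a filter on dim probe sets 2 were called for WAT minus muscle, against 4. The cause of the other changes was not tested. The replicate number as a factor in the fit of each tissue gave 0 called members for UAG. Deviations of same-numbered arrays correlated between UAG and saline at -0.176 in WAT, 0.177 in muscle and -0.0284 in liver, so the numbers were not taken as pairs of UAG with saline. Between tissues of one treatment they correlated at 0.153 (muscle and WAT), 0.11 (liver and WAT) and 0.076 (liver and muscle) with saline. With UAG the values were 0.0138 to 0.0381. Between different tissues of different treatments, which cannot share a mouse, they were -0.0277 to 0.101. Blocks of one treatment and number gave 0 called members for the average over the tissues (Dusp1 0.69, SE 0.27, adjusted p = 1), and means over the tissues gave 0 as well.

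The UAG minus saline log2 difference changed sign for several members with an array left out. The range over arrays left out was -0.24 to 1.20 for Fos, -0.44 to 0.86 for Egr1, -0.76 to 0.12 for Jun, -0.77 to 0.35 for Egr2 and -0.19 to 0.34 for Atf3 in WAT. It was -0.25 to 1.34 for Fos, -0.23 to 0.78 for Egr1, -0.21 to 0.84 for Ier2 and -0.001 to 0.24 for Junb in muscle. It was -0.75 to 0.72 for Fos, -0.78 to 1.94 for Egr1, -0.58 to 0.30 for Junb, -0.22 to 0.13 for Jund and -0.23 to 0.07 for Fosb in liver. Between tissues it was -0.39 to 0.41 for Fos in WAT minus muscle and -0.68 to 0.68 for Egr1 in WAT minus liver. With the saline arrays numbered 1 left out together, the UAG differences that changed sign were those of Fos (-0.24 in WAT, -0.25 in muscle), Egr1 (-0.44 in WAT, -0.23 in muscle, -0.78 in liver), Ier2 (-0.21 in muscle) and Jund (0.08 in liver), and Fos in WAT minus muscle was -0.02. With those numbered 2 left out they were Fos (0.72 in liver), Jun (0.12 in WAT) and Junb (0.30 in liver), and Egr1 in WAT minus liver was 0.35. Without a floor the UAG difference of Fos was 0.25 in liver and that of Egr2 0.12 in WAT, and with a floor of 100 Fos in WAT minus muscle was -0.02. With the mean of both Jund probe sets, the dim one entering as deposited, Jund gave -0.32 in muscle and 0.32 in liver, values set by a probe set below 30 on all 12 arrays, which say nothing of its direction. Depth is not recorded for arrays, and genes near the floor of 30 carry the least information.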
